A study of Rattus norvegicus with 12 samples.

Results

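RGS proteins and cyclic nucleotide phosphodiesterases were followed here through 10 genes, Rgs2, Rgs3, Rgs4, Rgs5, Pde1a, Pde3a, Pde3b, Pde4b, Pde4d and Pde5a. Their members on the array were all probes that the scanner files name as one of these genes, which gave 13 of 30367 probes, 6 for RGS genes and 7 for phosphodiesterase genes. Of these, 12 probes of 9 genes were bright enough to be tested, among 18997 probes in all; the Pde5a probe was not.

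Total RNA of ventricular cardiomyocytes from newborn rats was labelled with Cy3 and read on Agilent rat arrays, 1 array per sample. Of 12 samples, 3 were unstretched controls and 3 each had been under biaxial, pulsatile stretch with 20% elongation for 2, 6 or 24 h. All cells, controls included, had grown in medium with 10% serum for 24 h beforehand, on collagen-coated silicone membranes. The same 3 controls served every stretch time, so a change with stretch and a change with time in culture cannot be told apart. The labels do not say whether replicates came from separate cell isolations. The labels name no sort of the cells. All 10 cardiomyocyte markers looked up were above background on all 12 arrays. So were all 12 listed for smooth muscle and pericytes, all 10 of fibroblasts and 9 of 11 on the array for macrophages and leukocytes. Some of the 12, such as Des and Abcc9, are also made by cardiomyocytes. In RNA that may come from a mixture of cells, fewer cells of a type and less RNA per cell cannot be told apart.

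A probe's level is given as a percent of the 75th percentile of its own array. That percentile lay between 1142 and 1671 intensity units. On each array 64.7% to 70.6% of spots were well above background, and the number of 3 arrays per group limits the precision. Levels of different probes are not comparable with each other. A change is a difference of group means on the log2 scale with its standard error (SE), and it was called at a Benjamini-Hochberg adjusted p below 0.05 over all 18997 probes in limma. The 24 h arrays stood on a slide of their own with 6 h replicate 3, while the controls, the 2 h arrays and the other 6 h arrays shared slide 1. Called member changes against control and list counts at 24 h are therefore given also with slide as a term of the model. In that model 6 h replicate 3 alone ties the slides together.

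RGS proteins (regulators of G protein signalling) speed up the hydrolysis of GTP by the alpha subunits of heterotrimeric G proteins, and so shorten the signal of receptors such as those for angiotensin II, endothelin and noradrenaline. In heart muscle Rgs2 acts mainly on Gq, and Rgs3, Rgs4 and Rgs5 act on Gq and Gi. Phosphodiesterases break down the second messengers cAMP and cGMP: Pde3a and Pde3b hydrolyse cAMP and are inhibited by cGMP, Pde4b and Pde4d are specific for cAMP, Pde5a is specific for cGMP, and Pde1a is activated by calcium and calmodulin. Both families thus set how long a signal of a G protein-coupled receptor lasts in a cardiomyocyte.

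The probes behind the main results are 60 bases long and their sequences stand in the array files, with positions on build rn4. They are shown because each reading below is a reading of this stretch of the transcript only.
Rgs2 probe A_64_P002156, chr13:57891896-57891955, minus strand: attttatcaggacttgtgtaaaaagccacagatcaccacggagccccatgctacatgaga
Rgs5 probe A_43_P12029, chr13:85480542-85482176, plus strand: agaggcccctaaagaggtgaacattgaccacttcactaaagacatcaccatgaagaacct
Pde3a probe A_43_P11923, chr4:178930231-178930290, plus strand: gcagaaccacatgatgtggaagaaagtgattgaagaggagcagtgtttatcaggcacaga
Pde4b probe A_64_P051631, chr5:123533360-123533419, plus strand: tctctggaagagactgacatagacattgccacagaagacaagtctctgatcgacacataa
The Rgs5 probe covers 1635 bases of genome although it is 60 bases long, so it spans an intron and reads spliced RNA; the other 3 lie within one stretch. The second Rgs2 probe, A_43_P14131, lies on the same strand at chr13:57890958-57891017. The Rgs4 probe lies at chr13:85534099-85534158 on the minus strand, 51923 bases beyond the Rgs5 probe, and in the current RefSeq order (GRCr8) Rgs5 and Rgs4 are direct neighbours among protein-coding genes.

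At 24 h of stretch Rgs4, Rgs5, Pde3a and Pde4b were lower than in controls and Rgs2 was higher, by both of its probes. That made 6 of 12 member probes called, 2 higher and 4 lower, against 44.5% of all probes called in the same comparison (14.1% higher and 30.4% lower), and the share of members called was close to that of the whole array. The median log2 change was -0.18 over the 12 member probes and -0.09 over all probes. At 2 h 1 of 12 member probes was called, Pde3b, which was lower and had been kept for testing only through the controls. The array had 7.11% called, 2.45% higher and 4.66% lower. At 6 h 0 of 12 were called in limma against 13.8% of all probes (4.08% higher and 9.69% lower), and 3 of the 12 had an unadjusted p below 0.05. The groups did not overlap for 2 of 12 member probes at 2 h (26.8% of all probes), for 4 at 6 h (36.8%) and for 8 at 24 h (57.3%).

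Rgs2, the RGS protein that acts mainly on Gq, had levels of 254%, 249% and 239% of the 75th percentile in the 3 controls by probe A_43_P14131. At 2 h they were 220%, 204% and 253%, at 6 h 273%, 268% and 291%, and at 24 h 339%, 356% and 345%. All 24 h arrays were above all others, all 6 h arrays were above all control and 2 h arrays, and the 2 h arrays overlapped the controls. The change at 24 h was 0.49 (SE 0.07; 1.40-fold; adjusted p = 0.000463), and at 6 h it was 0.16 (95% interval 0.00 to 0.32; adjusted p = 0.169), which was not called. The other Rgs2 probe, A_64_P002156, read 717%, 735% and 717% in controls, 619%, 643% and 717% at 2 h, 749%, 775% and 786% at 6 h and 860%, 804% and 856% at 24 h. Its order of groups was the same and its change at 24 h smaller, 0.22 (SE 0.06; 1.16-fold; adjusted p = 0.0122). Neither probe was called at 2 h, with changes of -0.14 (SE 0.07) and -0.13 (SE 0.06).

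Between stretch times Rgs2 rose from 2 h to 6 h by 0.30 (SE 0.07; adjusted p = 0.0366) and by 0.23 (SE 0.06; adjusted p = 0.0428), where 3 of 12 member probes and 8.01% of all probes were called. Of the 3, 2 were higher and 1 lower, against 2.68% and 5.33% of all probes. These calls were near the threshold: with 1 array left out in turn, the first probe lost its call in 9 of 12 cases and the second in 10 of 12, at changes of 0.23 to 0.32 and 0.18 to 0.24. The arrays that kept the call of the first when left out were control replicate 1, 2 h replicate 3 and 24 h replicate 2, and for the second 2 h replicate 3 and 24 h replicate 2. From 6 h to 24 h probe A_43_P14131 rose by a further 0.32 (SE 0.07; adjusted p = 0.0110), and the other probe's 0.13 (95% interval -0.0032 to 0.25; adjusted p = 0.148) was not called. From 2 h to 24 h the changes were 0.62 (adjusted p = 0.000109) and 0.35 (adjusted p = 0.000889). With slide as a term the 24 h changes against control were 0.38 (SE 0.13; adjusted p = 0.0990) and 0.17 (SE 0.11; adjusted p = 0.350), which ended both calls. Within slide 2 the 24 h arrays lay 0.25 (SE 0.08) and 0.10 (SE 0.08) above 6 h replicate 3, not called.

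Rgs3 was read by a pair of probes that differ in reliability. Probe A_64_P149139 (chr5:79708975-79709034) read 320%, 301% and 302% in controls, 293%, 229% and 289% at 2 h, 297%, 293% and 326% at 6 h and 360%, 329% and 363% at 24 h. The 24 h arrays lay above all other arrays, and the change against control, 0.19 (95% interval -0.01 to 0.39; adjusted p = 0.116), was not called. Against 2 h, where replicate 2 was the lowest of all 12 arrays, the 24 h level was higher by 0.38 (SE 0.09; adjusted p = 0.00655); with slide as a term this became 0.24 (adjusted p = 0.387). Probe A_64_P082653 (chr5:79661488-79661547) is printed on the array as a single spot, was above background on 10 of 12 arrays and read 1.5% to 4.49%. Its 24 h change of 0.30 (95% interval -0.47 to 1.07) covers both directions.

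Rgs4, which acts on Gq and Gi, had control levels of 16.3%, 19.8% and 18.1% in the mean of its 10 spots per array. At 2 h they were 24.2%, 17.7% and 20.2%, at 6 h 15.6%, 14.1% and 17.1%, and at 24 h 9.31%, 8.16% and 11.2%. The 24 h arrays were below all other 9 arrays, the 6 h arrays were below the 2 h arrays, and the remaining groups overlapped. Its change of -0.92 (SE 0.14; adjusted p = 0.000483) at 24 h, a level 1.90-fold lower than in controls, was the largest among the members. At 2 h the change was 0.19 (95% interval -0.12 to 0.50) and at 6 h -0.21 (95% interval -0.52 to 0.10), neither of them called. The fall lay mostly after 6 h: 24 h was lower than 6 h by 0.71 (log2 -0.71, SE 0.14; adjusted p = 0.00536), a comparison in which 4 of 12 member probes and 21.6% of all probes were called. Of the 4, 1 was higher and 3 lower, against 7.94% and 13.7% of all probes. The difference from 2 h was -1.12 (adjusted p = 0.000163). With slide as a term the 24 h change against control was -1.13 (SE 0.25; adjusted p = 0.0215), and within slide 2 the 24 h arrays lay at -0.85 (SE 0.19; adjusted p = 0.146) against the single 6 h array there.

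Rgs5, a small RGS protein that marks pericytes and vascular smooth muscle and is also made in heart muscle, read 3.95%, 3.48% and 3.37% in controls and 4.19%, 3.44% and 4.33% at 2 h. It read 2.90%, 2.68% and 3.28% at 6 h and 2.10%, 2.06% and 2.41% at 24 h. The 6 h arrays were below all control and 2 h arrays and the 24 h arrays below all 6 h arrays. The change was -0.72 (SE 0.11; 1.64-fold lower; adjusted p = 0.000479) at 24 h and -0.29 (SE 0.11; adjusted p = 0.108) at 6 h. Between times it fell from 2 h to 6 h with a log2 change of -0.43 (SE 0.11; adjusted p = 0.0398), from 6 h to 24 h with -0.43 (SE 0.11; adjusted p = 0.0182), and from 2 h to 24 h with -0.86 (adjusted p = 0.000170). The first of these lost its call without control replicate 2 or 3, 2 h replicate 1 or 3, any 6 h replicate or 24 h replicate 1, at -0.51 to -0.36. The next was lost without 6 h replicate 3 (-0.35), 24 h replicate 1 (-0.40) or 24 h replicate 2 (-0.39). With slide as a term the 24 h change against control was -0.95 (SE 0.18; adjusted p = 0.0118), and within slide 2 it was -0.58 (SE 0.12; adjusted p = 0.123) against 6 h replicate 3.

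**Figure D1:**
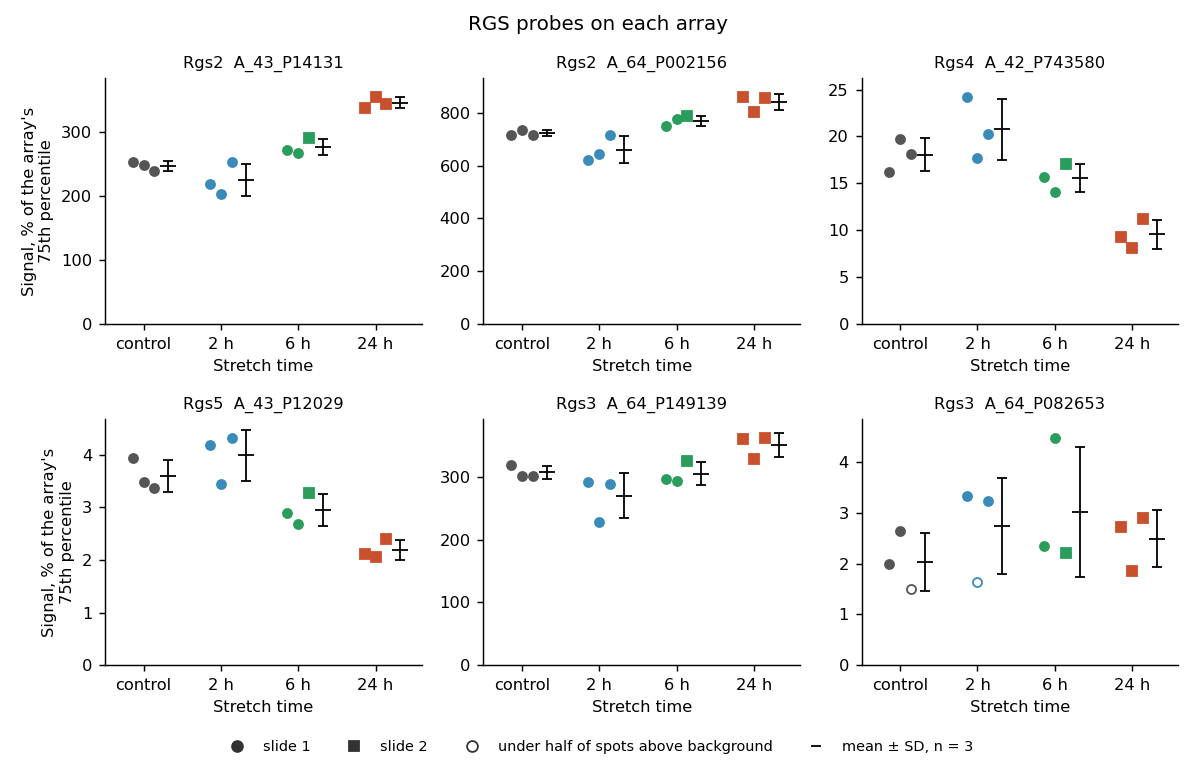
Signal of the 6 RGS probes on each of the 12 arrays as percent of that array's 75th percentile, by stretch time, each panel with its own axis from 0. Circles are arrays of slide 1 and squares of slide 2, open symbols mark arrays with under 0.5 of a probe's spots above background, and black bars are mean and SD of 3 arrays. Both Rgs2 probes are highest at 24 h, at 339% to 356% and 804% to 860%, and Rgs4 and Rgs5 lowest, at 8.16% to 11.2% and 2.06% to 2.41%.

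Rgs4 and Rgs5 followed each other over the 12 arrays with a Pearson r of 0.94, given as a description: the arrays are the same and so is the scaling of each. Rgs2 (A_43_P14131) ran against both, with r of -0.87 with Rgs4 and -0.82 with Rgs5, and its 2 probes had r of 0.93 with each other. Because these genes move together or apart, the 250 bases before their start sites are shown from RefSeq (build GRCr8), written in the direction of the gene, with the motif matches in capitals.
Rgs2 promoter, chr13:58352667-58352916, minus strand: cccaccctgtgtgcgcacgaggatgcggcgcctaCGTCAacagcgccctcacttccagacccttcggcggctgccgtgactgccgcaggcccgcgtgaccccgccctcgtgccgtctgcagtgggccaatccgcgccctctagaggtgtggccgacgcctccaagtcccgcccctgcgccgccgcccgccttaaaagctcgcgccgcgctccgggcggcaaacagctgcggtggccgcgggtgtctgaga
Rgs4 promoter, chr13:84475885-84476134, minus strand: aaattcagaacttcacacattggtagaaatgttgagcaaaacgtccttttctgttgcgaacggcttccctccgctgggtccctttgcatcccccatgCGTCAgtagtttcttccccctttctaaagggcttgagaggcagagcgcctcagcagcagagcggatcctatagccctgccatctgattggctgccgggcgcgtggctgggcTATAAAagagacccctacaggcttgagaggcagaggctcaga
Rgs5 promoter, chr13:84380827-84381076, plus strand: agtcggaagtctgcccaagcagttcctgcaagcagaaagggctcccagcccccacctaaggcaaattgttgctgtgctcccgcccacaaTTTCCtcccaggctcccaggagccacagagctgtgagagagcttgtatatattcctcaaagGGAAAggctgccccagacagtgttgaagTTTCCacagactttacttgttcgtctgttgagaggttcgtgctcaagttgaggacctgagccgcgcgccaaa
The motifs searched on both strands were the full cAMP response element TGACGTCA, its core TGACG, the AP-1 site TGANTCA, the NFAT core GGAAA, the CArG box bound by serum response factor, and the TATA sequence TATAAA, the last added after the sequences had been seen. The capitals in Rgs2 and the first capitals in Rgs4 are the core TGACG read on the other strand, which 18.2% of all 33469 promoter windows of this length hold. The second capitals in Rgs4 are TATAAA, from 42 to 37 bases before the start site, held by 12.9% of windows. The capitals in Rgs5 are the NFAT core, once in the printed direction and 2 times on the other strand; 56.9% of windows hold it. The full element (1.59% of windows), the AP-1 site (6.34%) and the CArG box (1.5%) were not among the letters of these 3 windows. None of the motifs matched in the Rgs4 window was matched in that of Rgs5.

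**Figure D2:**
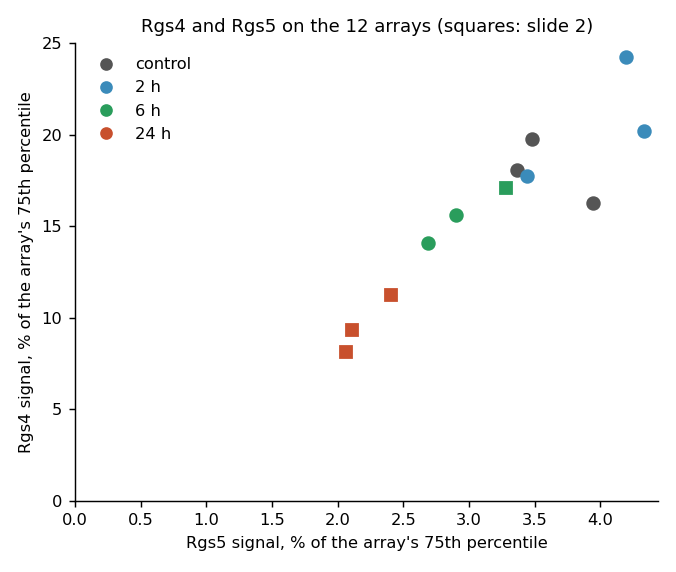
Rgs4 against Rgs5 on the 12 arrays, each as percent of the array's 75th percentile, both axes from 0, coloured by group, with squares for slide 2. The 24 h arrays (Rgs4 8.16% to 11.2%, Rgs5 2.06% to 2.41%) lie apart from the others at the lower left. The 2 h array with the highest Rgs4, 24.2%, has Rgs5 at 4.19%.

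Pde3a, a cAMP phosphodiesterase of heart muscle that controls calcium uptake by the sarcoplasmic reticulum and is the target of milrinone, read 6.52%, 7.16% and 6.61% in controls, 6.41%, 7.12% and 5.87% at 2 h and 6.95%, 6.21% and 6.23% at 6 h. At 24 h it read 4.49%, 3.69% and 4.87%. The first 3 groups overlapped and the 24 h arrays were below all of them. The change was -0.65 (SE 0.10; 1.56-fold lower; adjusted p = 0.000695) at 24 h, while at 2 h and 6 h it was -0.07 each time, with a 95% interval of -0.30 to 0.16. The 24 h level was also below that at 6 h (-0.58, SE 0.10; adjusted p = 0.00331) and at 2 h (-0.58, SE 0.10; adjusted p = 0.00144). With slide as a term the 24 h change against control was -0.57 (SE 0.19; adjusted p = 0.0928), which ended the call at a similar size; within slide 2 it was -0.53 (SE 0.17) against 6 h replicate 3.

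Pde4b, a cAMP-specific enzyme found in cardiomyocytes near L-type calcium channels and abundant in leukocytes, read 6.37%, 4.46% and 4.85% in controls, 4.80%, 5.93% and 6.08% at 2 h and 3.94%, 5.85% and 4.58% at 6 h. At 24 h it read 3.45%, 2.97% and 3.92%, below all other arrays by a small margin, since 6 h replicate 1 stood at 3.94%. The 24 h change was -0.59 (SE 0.17; 1.51-fold lower; adjusted p = 0.0185) and the difference from 2 h was -0.70 (SE 0.17; adjusted p = 0.00823), where 7 of 12 member probes and 45.8% of all probes were called. Of the 7, 3 were higher and 4 lower, against 15.5% and 30.3% of all probes. The difference from 6 h, -0.46 (95% interval -0.85 to -0.08; adjusted p = 0.0828), was not. The call against control was lost without control replicate 1 (-0.44; adjusted p = 0.0679) or 24 h replicate 2 (-0.49; adjusted p = 0.0721). With slide as a term the change was -0.53 (SE 0.33; adjusted p = 0.338). It was not called with median scaling (-0.33), quantile normalization (-0.31) or the authors' series matrix (-0.23) either.

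Pde3b, the relative of Pde3a best known from fat and liver, was read near background. Its probe has a GC content of 20.0% and was above background on 6 of 12 arrays, 3 controls, 0 at 2 h, 1 at 6 h and 2 at 24 h. Controls read 1.48%, 1.76% and 1.48%, and the 2 h arrays, not well above background, 0.950%, 1.23% and 1.20%. It was kept for testing only through the controls, the group where it read highest, so the filter itself favoured a call of lower. The fit called it lower at 2 h (log2 -0.49, SE 0.12; adjusted p = 0.0345), a call lost with no filter. No fold is given because the detection limit of the 2 h arrays lay above the control level. At 6 h it read 1.14%, 1.45% and 1.22% and at 24 h 1.33%, 1.32% and 1.43%, each time below all controls but not called (adjusted p = 0.107 and 0.170). The 2 h call was lost without any of the control replicates, 2 h replicate 1 or 3, or 24 h replicate 1, at -0.54 to -0.37.

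Pde4d, a cAMP-specific phosphodiesterase of the ryanodine receptor complex, moved least. Probe A_43_P11785 read 30.4%, 34.4% and 32.8% in controls, 32.5%, 29.5% and 32.8% at 2 h, 30.2%, 31.6% and 30.1% at 6 h and 33.2%, 32.6% and 33.4% at 24 h. Its 24 h change of 0.02 had a 95% interval of -0.11 to 0.15, which is narrow beside the falls of Pde3a and Pde4b; under scaling to the array median it became 0.29 (SE 0.06; adjusted p = 0.00174) and was called. The probe of transcript variant 1, A_64_P051661, ranged from 6.53% to 9.36% over the 12 arrays with overlap of every pair of groups, and its 24 h change was -0.16 (95% interval -0.40 to 0.09).

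Pde1a, the calcium- and calmodulin-dependent enzyme, read 4.65%, 4.31% and 2.80% in controls, 3.38%, 2.43% and 3.34% at 2 h, 3.52%, 3.83% and 3.37% at 6 h and 2.88%, 2.81% and 3.34% at 24 h. The controls overlapped each stretch time, with replicate 3 below the other controls, and the 24 h change of -0.35 (95% interval -0.76 to 0.06; adjusted p = 0.145) was not called. Pde5a, the cGMP phosphodiesterase inhibited by sildenafil, read 0.383% to 1.28%. It was above background on 1 of 12 arrays, control replicate 1, so it was not tested and nothing follows for its level.

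**Figure D3:**
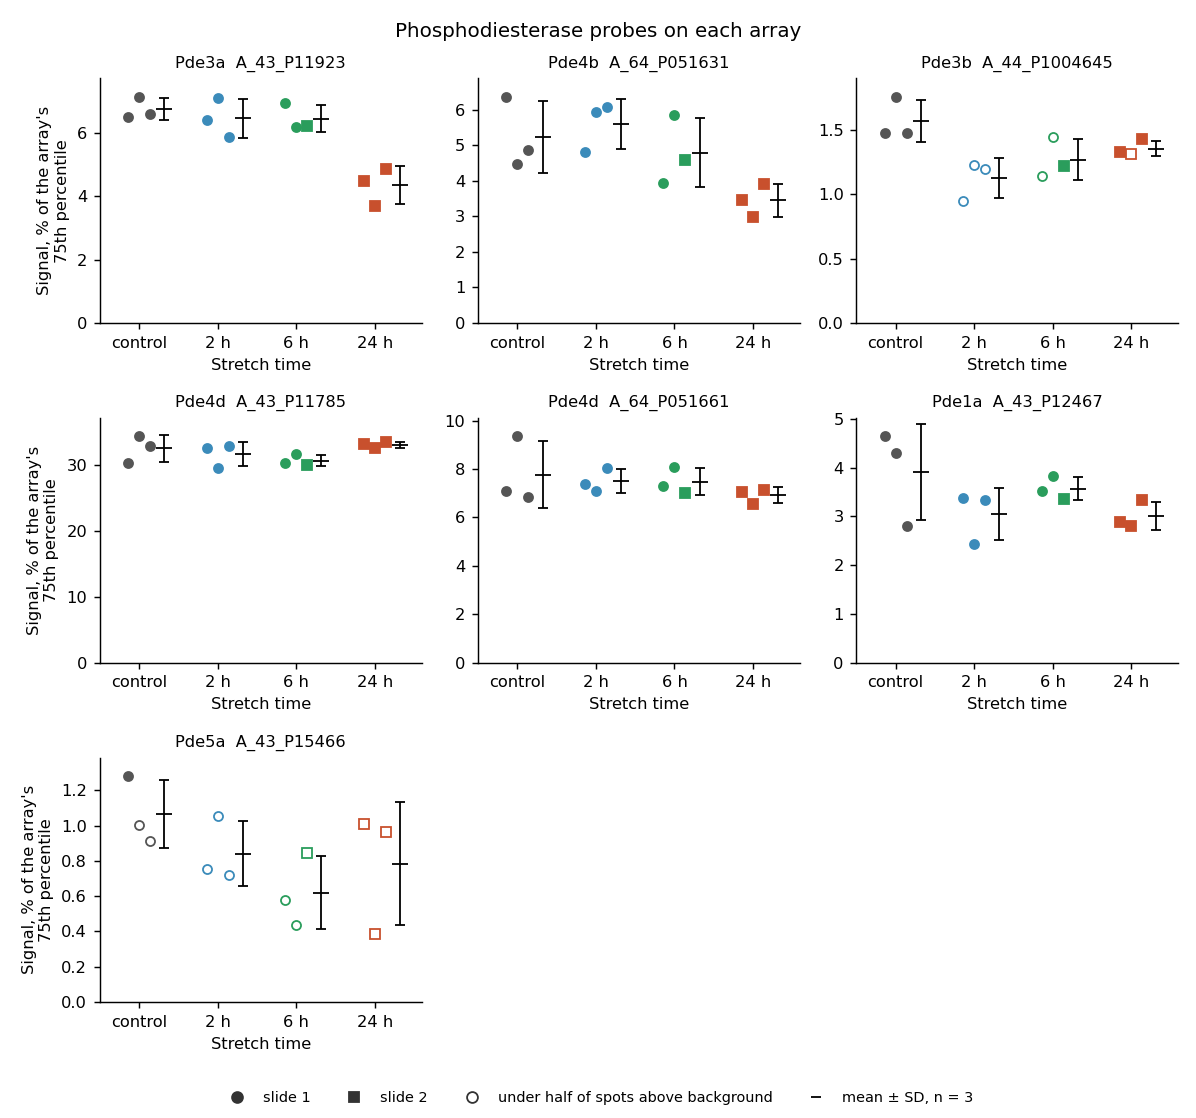
Signal of the 7 phosphodiesterase probes on each of the 12 arrays as percent of that array's 75th percentile, by stretch time, each panel with its own axis from 0, with circles for slide 1, squares for slide 2, open symbols for arrays with under 0.5 of a probe's spots above background, and mean and SD of 3 arrays in black. Pde3a (3.69% to 4.87%) and Pde4b (2.97% to 3.92%) are lowest at 24 h, the Pde4d probe A_43_P11785 stays between 29.5% and 34.4%, and 6 of 12 Pde3b and 11 of 12 Pde5a symbols are open.

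The F test over the 4 groups called 8 of 12 member probes, against 48.3% of all probes: both Rgs2 probes, Rgs5, Rgs4, Pde3a, Pde4b, Pde3b and Rgs3 A_64_P149139, the last at an adjusted p of 0.0306. Pde3b had been kept for this test only through the controls, where it read highest. Between stretch times the groups did not overlap for 5 of 12 member probes from 2 h to 6 h (33.1% of all probes), for 9 from 6 h to 24 h (43.6%) and for 8 from 2 h to 24 h (56.1%). The size of each 24 h change depended on how the arrays were put on a common scale. Relative to the 75th percentile the median of all probes moved by -0.09 at 24 h; scaling each array to its median put it at 0.17 and scaling to the spiked-in control RNA at 0.33. The split of called probes went from 2682 higher and 5776 lower to 8552 and 2098 and to 5939 and 688. With spike-in scaling Rgs4 was at -0.49 (adjusted p = 0.0366), Rgs5 at -0.29 (adjusted p = 0.222), Pde3a at -0.22 (adjusted p = 0.362) and Pde4b at -0.16 (adjusted p = 0.509). Rgs2 was at 0.91 (adjusted p = 0.000115) and 0.64 (adjusted p = 0.00710). Every called 24 h change kept its sign under all settings shown in the plot of settings.

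**Figure D4:**
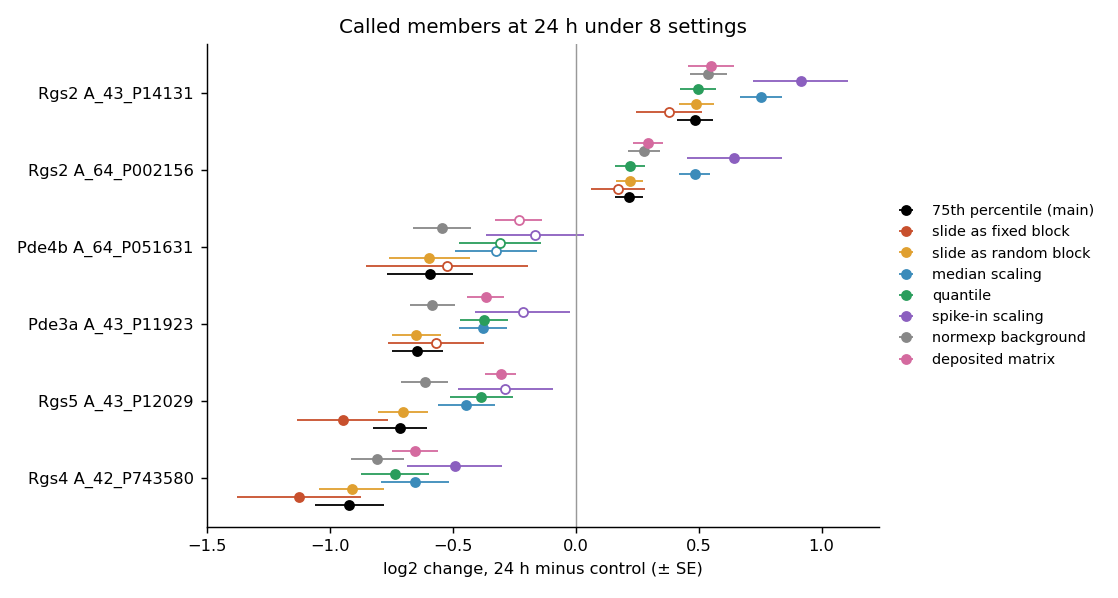
The log2 change from control to 24 h of the 6 called member probes under 8 settings of scaling, background and slide, with SE as bars; filled symbols were called at an adjusted p below 0.05 and open ones not. Rgs2 lies above 0 and the other 4 below 0 in every setting; with slide as a fixed term (open or filled red) the bars are wider, and Rgs4 (-1.13) and Rgs5 (-0.95) remain filled.

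By the fixed rule of likeness, the 3 named genes among 14381 with the highest Pearson r over the 12 arrays were Actg2 (0.98), Tagln (0.98) and RGD1304963 (0.98) for Rgs4, Fblim1 (0.98), Mylk2 (0.97) and Rnaset2 (0.97) for Rgs5, and Tbc1d10c (0.96), Fam198b (0.96) and Corin (0.96) for Pde3a. Actg2 and Tagln encode the gamma smooth muscle actin and transgelin, proteins of the contractile apparatus of smooth muscle. Corin encodes the protease that activates atrial natriuretic peptide. With 4 groups of 3 arrays, such values mostly reflect the order of the group means. At 24 h 30.4% of all probes were lower and 14.1% higher, with a median change of -0.09. Of the 12 markers of smooth muscle and pericytes, which do not include Rgs4 or Rgs5, 6 were lower and 2 higher at 24 h with a median of -0.43. Abcc9, which like Des on this list is also made by cardiomyocytes, was at -1.08 and Myh11 at -1.07, both called. The pericyte markers Cspg4 (0.04) and Kcnj8 (0.06) were not called and Cnn1 was higher at 0.60. The summed level of the 12 markers was 66.8 to 69.2 times the 75th percentile in controls and 64.8 to 66.9 times at 24 h. A sum adds the levels of different probes and the brightest weigh most, so it does not measure the amount of a cell type. The same holds for the summed levels of the lists below. The 24 h count became 4 higher and 2 lower with spike-in scaling and 0 higher and 4 lower with slide as a term. Over all 18997 probes these settings gave 5939 higher and 688 lower, and 514 higher and 1664 lower. The same counts over all probes stand beside the spike-in and slide counts of every list below. The part of smooth muscle cells and pericytes in the Rgs4 and Rgs5 results was not tested.

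The other RGS genes on the list were 17, of which 15 were on the array and 9 were tested. At 24 h all 9 were called, 6 lower and 3 higher, with a median of -0.61 beside -0.09 over all probes. Of all probes 44.5% were called there (14.1% higher and 30.4% lower). Among the 6 lower, Rgs18 and Rgs16 had been kept for testing only through the controls, where they read highest. The filter itself thus favoured a fall of these genes, and the count and the median include them. With spike-in scaling the count was 3 lower and 3 higher, and with slide as a term 2 lower (Rgs1 and Rgs18) and 0 higher. Over all probes these settings gave 688 lower and 5939 higher, and 1664 lower and 514 higher. Rgs18, an RGS protein of platelets and leukocytes, was called lower (adjusted p = 8.79e-06) and was not well above background on any 24 h array, so only a bound is given: controls were at least 1.70-fold higher. Rgs1, an RGS protein of lymphocytes and macrophages, was at -1.66 (SE 0.14; adjusted p = 1.10e-05). Rgs16 was at -1.03 (SE 0.29; adjusted p = 0.0148) and above background on 1 of 3 arrays at 24 h; with slide as a term it was not called. Rgs6, which with Gnb5 acts on Gi downstream of the muscarinic receptor of the heart, was at -0.89, Rgs14 at -0.61 and Rgs12 at -0.24. Rgs10 (0.21), Rgs17 (0.30) and Rgs19 (0.31) were higher. Rgs18 and Rgs12 were already called lower at 2 h, Rgs18 with controls at least 1.07-fold higher and Rgs12 at -0.33, and these with Rgs1 were lower at 6 h (Rgs18 at -0.85 with 1 of 3 arrays above background, Rgs12 at -0.26 and Rgs1 at -0.81). The call of Rgs18 at 2 h was lost without control replicate 2 (adjusted p = 0.0530) and at 6 h without any of 3 arrays (-0.85 to -0.69), that of Rgs12 at each time without any of 4 arrays (-0.33 to -0.31 and -0.26 to -0.21).

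Markers of macrophages and leukocytes were lower at 24 h, as were 6 of the 9 other RGS genes tested, while 3 of those 9 were higher. All 9 tested markers were lower at 24 h, with a median of -1.35, and their summed level fell from 16.5 times the 75th percentile in every control (16.5 to 16.5) to 5.75 to 6.73 times. At 6 h it was 15.0 to 16.9 and at 2 h 17.3 to 20.2. At 24 h all 9 were called lower also with the series matrix, quantile and normexp settings, and 8 of 9 with median or spike-in scaling or with slide as a term. The part of leukocytes in the changes of the members and of the listed genes, lower or higher, was not tested. Of all probes 44.5% were called at 24 h (14.1% higher and 30.4% lower), with a median change of -0.09. Of the other marker lists at 24 h, 6 of 10 cardiomyocyte markers were lower and 2 higher, 8 of 10 fibroblast markers lower, and 6 of 9 endothelial markers lower. With spike-in scaling these became 0 lower and 2 higher, 0 lower and 2 higher, and 0 called. With slide as a term they were 1 lower and 1 higher, 4 lower and 0 higher, and 4 lower and 0 higher. Their summed levels in controls and at 24 h were 993 to 1062 and 866 to 938 times the 75th percentile for cardiomyocytes, 170 to 182 and 123 to 142 for fibroblasts and 3.99 to 4.23 and 2.91 to 3.16 for endothelium.

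Of 18 other genes named as phosphodiesterases, 17 were on the array and 8 were tested. The 8 include Pde6d, whose protein carries lipid-modified proteins and is not itself a phosphodiesterase. At 24 h 4 were lower and 1 higher, with a median of -0.56, beside 30.4% lower and 14.1% higher over all probes. With spike-in scaling 1 was lower and 2 were higher, and with slide as a term 2 were lower (Pde2a and Pde4a) and 0 higher. Pde2a, which cGMP stimulates to hydrolyse cAMP, was lower at 6 h (-0.56, SE 0.06; adjusted p = 0.000944) and 24 h (-0.67, SE 0.06; adjusted p = 1.55e-05). Pde7b was at -0.997 (SE 0.28; adjusted p = 0.0153) at 24 h, and Pde9a, specific for cGMP, at -0.56 (SE 0.20; adjusted p = 0.0378); with slide as a term neither was called, and Pde9a lost its call without any of 5 arrays (-0.60 to -0.44). Pde4a was also lower at 24 h (-0.55) and Pde7a higher (0.20). Pde10a was higher at 2 h (0.29) and 6 h (0.38) and at 0.07 at 24 h, where it was not called, and Pde6d was lower at 6 h (-0.23). The calls of Pde10a at 2 h and Pde6d at 6 h were lost without any of 5 and 3 arrays (0.26 to 0.31 and -0.22 to -0.18). Pde1b was at -0.74 at 24 h and not called.

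**Figure D5:**
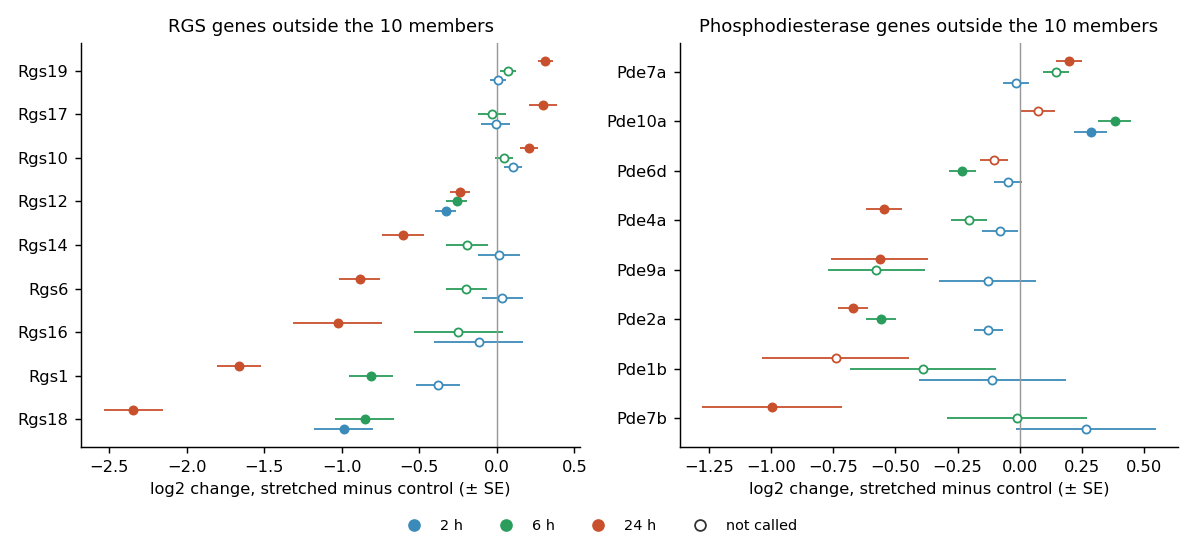
The log2 change from control of the 9 other RGS genes (left) and the 8 other genes named as phosphodiesterases (right) at 2, 6 and 24 h, with SE as bars. Filled symbols were called. Rgs1 lies at -1.66 at 24 h. The Rgs18 symbol at 24 h comes from arrays not well above background and stands for at least 1.70-fold lower only. Pde2a is at -0.56 at 6 h and -0.67 at 24 h.

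Upstream of the members stand the receptors and G proteins. The list of receptors that couple to Gq or Gi in heart also held Apln, which encodes a ligand, apelin. Of its 15 tested genes, Apln included, 8 were lower and 3 higher at 24 h, with a median of -0.31. Over all probes 30.4% were lower and 14.1% higher. The split was 4 and 3 with spike-in scaling and 3 and 3 with slide as a term. F2rl1, the protease-activated receptor 2, rose at 2 h (0.41), 6 h (0.54) and 24 h (1.68, SE 0.10; 3.20-fold; adjusted p = 1.58e-06). The endothelin receptors Ednrb (-1.19, SE 0.20; adjusted p = 0.00101) and Ednra (-0.98, SE 0.07; adjusted p = 3.23e-06) were lower at 24 h, the first above background on 1 of 3 arrays there. S1pr1 was higher at 2 h (0.45), 6 h (0.54) and 24 h (0.72). Adora1, an adenosine receptor that couples to Gi, was lower at 2 h (-0.32) and higher at 24 h (0.81, SE 0.07; adjusted p = 1.14e-05). S1pr3 was lower at 6 h (-0.52) and 24 h (-0.97). The 2 h calls of F2rl1 and Adora1 were lost without any of 8 and 4 arrays (0.33 to 0.43 and -0.32 to -0.27) and the 6 h call of S1pr3 without any of 5 (-0.57 to -0.36). Of 21 G protein subunits 0 were called at 2 h in limma (2 with an unadjusted p below 0.05; 7.11% of all probes were called) and 5 were lower at 6 h (13.8% of all probes called, 9.69% lower). At 24 h 11 were lower and 2 higher, beside 30.4% and 14.1% of all probes. The split became 1 lower and 4 higher with spike-in scaling and 1 lower and 0 higher with slide as a term. Gnb3 (-1.15), Gnao1 (-0.63) and Gng3 (-0.55) had the largest changes at 24 h. At 6 h Gnao1 was at -0.48, Gng3 at -0.36 and Gnb5, the partner of Rgs6, at -0.30, the last 2 lost without any of 5 and 7 arrays (-0.38 to -0.31 and -0.35 to -0.26).

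On the cAMP side 12 of 30 tested genes were lower and 2 higher at 24 h. The 46.7% called is near the 44.5% of all probes, and the counts became 1 and 6 with spike-in scaling and 3 and 0 with slide as a term. Adcy9, an adenylyl cyclase (-0.94, SE 0.15), Akap12, a PKA anchoring protein (-0.69, SE 0.05), and Adrb1, the main beta-adrenergic receptor of the heart (-0.68, SE 0.11), had the largest falls. Earlier, Popdc2, a cAMP-binding membrane protein, was higher at 2 h (0.51) and 6 h (0.39). Akap12 was lower at 6 h (-0.27). On the cGMP side 5 of 12 genes were lower and 2 higher at 24 h (1 and 4 with spike-in scaling, 1 and 2 with slide as a term), or 58.3% called beside 44.5% of all probes. The natriuretic peptide genes Nppb (0.98, SE 0.08) and Nppa (0.69, SE 0.06) rose, and Prkg1, the cGMP-dependent protein kinase, fell (-0.92, SE 0.15). Nppb was already higher at 2 h (0.45), a call lost with quantile normalization, spike-in scaling or only both groups in the fit, and at 6 h (0.75). Prkg1 (-0.68) and Gucy1a2 (-0.87) were lower at 6 h and Gucy1a3 (-0.28) at 2 h, calls lost without any of 3, 4 and 10 arrays (-0.66 to -0.59, -0.89 to -0.67 and -0.31 to -0.23). Gucy1a2 was above background on 2 of 3 arrays at 6 h and had been kept for testing only through the controls, where it read highest.

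Downstream, the list of CREB target genes also held Crtc1, Crtc2 and Crtc3, which encode coactivators of CREB and were among its 12 tested genes. Of these 12 genes 8 were higher and 2 lower at 24 h, with a median of 0.27. With spike-in scaling 9 were higher and 0 lower, and with normexp background 3 were higher and 2 lower. With slide as a term 5 were higher and 1 lower. Over all probes 14.1% were higher and 30.4% lower before these changes of setting. With spike-in scaling 5939 of all 18997 probes were higher and 688 lower. The counts over all probes were 2360 and 8226 with normexp background, and 514 and 1664 with slide as a term. Bdnf (1.05, SE 0.09), Nr4a3 (0.92, SE 0.09) and Ppargc1a (-0.79, SE 0.06) had the largest changes, and the first 2 were not called with normexp. Of the 21 list changes named at 24 h, 12 stayed called with slide as a term, while Rgs16, Pde7b, Pde9a, Gnao1, Gng3, Ednrb, Adcy9, Adrb1 and Prkg1 did not. With spike-in scaling 14 of the 21 stayed called, and Pde2a, Pde9a, Gnao1, Gng3, Akap12, Adrb1 and Ppargc1a did not. Of the changes named at 2 h, 4 of 13 stayed called with spike-in scaling, and at 6 h 7 of 20. At 2 h Nr4a3 (0.63), Fos (0.60) and Sik1 (0.44) were higher, and at 6 h Sik1 (0.30) and Nr4a2 (0.26) were higher and Ppargc1a lower (-0.29). The calls of Sik1 were lost without any of 3 arrays at 2 h (0.39 to 0.41) and any of 7 at 6 h (0.25 to 0.30).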

How the data were processed

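Members and gene lists were chosen with earlier results of these data known, so no list is independent evidence of its direction. Per the file headers, Agilent Feature Extraction 11.0.1.1 made the values; the submitters' processing notes name 10.7.3.1. Per the file headers, the deposited processed signals are linear intensity values, background-subtracted and not scaled between arrays; the spot flags are other values, 0 or 1. The authors' deposited series matrix (28902 probes, intensity, scaling not stated) was an alternative.

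Non-outlier spots of a probe were averaged as log2 signal minus the array's 75th percentile over all spots that are not controls. A probe was kept when a share of at least 0.5 of its spots was well above background on all 3 arrays of 1 group. limma 3.58.1 (lmFit, eBayes; R 4.3.3) estimated the 4 group means from the 12 arrays together, checked on simulated data; tests were two-sided. Named were all member probes and, per list and time, up to 3 called genes with the largest change, each by its brightest probe (1 gene that the rule names is not reported here); Rgs and Pde genes outside that rule are named from their counts. For a group with no array above background, a bound replaced the fold, with dim values raised to the lowest signal above background. RefSeq promoters were matched for 9 of 10 genes (14 windows). The files name probes by the symbols of the array design. Alternatives covered scaling, background, filter, probes per gene, slide, replicate block, groups in the fit and each array left out.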

Additional observations from a re-analysis of the deposited data

Results flagged for a closer look

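Changes of 6 member genes differed between stretch times by the test of the difference itself (limma, adjusted p below 0.05). Of all probes 8.01% were called from 2 h to 6 h, beside 3 of 12 member probes. From 6 h to 24 h the figures were 21.6% and 4, and from 2 h to 24 h 45.8% and 7. From 2 h to 6 h, Rgs2 rose by 0.30 (A_43_P14131) and 0.23 (A_64_P002156) on the log2 scale and Rgs5 fell by 0.43. These calls were near the threshold and were lost in 16 of 23, 17 of 24 and 16 of 24 alternatives. From 6 h to 24 h, Rgs2 A_43_P14131 rose by 0.32, while Rgs4 fell by 0.71, Pde3a fell by 0.58 and Rgs5 fell by 0.43. From 2 h to 24 h, the rises were 0.62 and 0.35 for Rgs2 and 0.38 for Rgs3 A_64_P149139. In that interval Rgs4 fell by 1.12, Rgs5 fell by 0.86, Pde4b fell by 0.70 and Pde3a fell by 0.58. The 24 h arrays share a slide with 1 of the 3 arrays at 6 h and none at 2 h. With slide as a term, the calls kept from 6 h to 24 h were those of Rgs4 and Rgs5. From 2 h to 24 h they were those of Rgs4, Rgs5 and Rgs2 A_43_P14131. From 2 h to 6 h none was kept.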

How the results depend on the processing

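All 21 called member changes kept their sign in 487 values under the alternatives, and 93 of these values were no longer called. Of 1199 values of the 51 changes not called, 99 had the other sign and 28 became called. Against control, the number of member probes called at 2 h (1) was 0 with normexp, the series matrix, quantile normalization, spike-in scaling, no filter, slide 1 alone or only both groups in the fit, and 0 to 1 with 1 array left out. At 6 h (0) it was 2 with median scaling, 4 with spike-in scaling and 0 to 0 with 1 array left out; at 24 h (6) it was 2 with slide as a term and 5 to 7 with 1 array left out. From 2 h to 6 h (3) it was 1 with normexp and 0 with spike-in scaling, no filter, slide as a term, slide 1 alone or only both groups, and 0 to 3 with 1 array left out. From 6 h to 24 h (4) it was 2 with spike-in scaling or slide as a term, 0 on slide 2 alone and 3 to 5 with 1 array left out. From 2 h to 24 h (7) it was 3 with slide as a term and 7 to 7 with 1 array left out, and by the F test (8) 5 with no filter, 2 with slide as a term and 6 to 9 with 1 array left out. Replicate numbers are shared between groups but did not pair the arrays (r of -0.10 to 0.08 for equal numbers); with the replicate number as a block, 1 member probe in place of 3 was called from 2 h to 6 h.

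Over all probes, 8458 were called at 24 h against control and 2178 with slide as a term. At 2 h 1351 were called, and 212 with spike-in scaling, 529 with no filter, 261 with only both groups in the fit, 667 on slide 1 alone and 801 with normexp. At 6 h 2616 were called, and 8905 with spike-in scaling, 1303 with no filter, 1224 on slide 1 alone and 1701 with slide as a term. From 2 h to 6 h 1522 were called, and 78 with only both groups, 115 on slide 1 alone, 266 with no filter, 492 with slide as a term, 533 with normexp and 687 with spike-in scaling. From 6 h to 24 h 4111 were called, and 110 on slide 2 alone, 1113 with slide as a term, 1214 with spike-in scaling and 6642 with median scaling. Between 2 h and 24 h 8704 were called, and 1846 with slide as a term and 3080 with spike-in scaling. Spike-in scaling turned these 6 h changes against control: Rgs3 A_64_P149139 to 0.47, Rgs12 to 0.22, Pde6d to 0.25, Gnao1 to 0.0017, Gng3 to 0.12, Gnb5 to 0.18, Akap12 to 0.21 and Ppargc1a to 0.19; it moved the median of all probes to 0.43 at that time. The causes of these differences were not tested. Signal near background limits Pde3b, Pde5a and Rgs3 A_64_P082653.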

Other observations

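Of 21 RGS genes in the current RefSeq annotation, 10 lie on rat chromosome 13. Rgs2 stands there in a run with Rgs13, Rgs1, Rgs21 and Rgs18, and the neighbours that could be read went the other way at 24 h: Rgs2 was at 0.49 and 0.22, and Rgs1 at -1.66 on the log2 scale, and Rgs18, not well above background on any 24 h array, was at least 1.70-fold higher in controls, while the probe of Rgs13 was too dim to be tested and Rgs21 was not among the probe names. Further along the chromosome, the neighbours Rgs5 and Rgs4 were at -0.72 and -0.92 and Rgs16, on the same chromosome, at -1.03. With slide as a term neither Rgs2 probe nor Rgs16 was called at 24 h, while Rgs1, Rgs18, Rgs4 and Rgs5 were. Rgs7 and Rgs8, also on this chromosome, were too dim to be tested. Rgs18 and Rgs16 had been kept for testing only through the controls, where they read highest.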
